A study of Mus musculus with 6 samples.

Results

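The microRNAs encoded inside the 4 mouse Hox gene clusters were compared between 3 primary tumors and 3 oviducts. The members were 9 mature strands of the miR-10, miR-196 and miR-615 hairpins, chosen by name and genomic position, out of 1915 mouse microRNA names in the count table: mmu-miR-10a-5p, mmu-miR-10a-3p, mmu-miR-10b-5p, mmu-miR-10b-3p, mmu-miR-196a-5p, mmu-miR-196b-5p, mmu-miR-196b-3p, mmu-miR-615-3p and mmu-miR-615-5p. The species prefix mmu is left out from here on. Of the 9, 7 passed the filter on low counts and were tested. The other two, miR-10a-3p and miR-615-5p, are described by their counts. The tumors carried a knocked-out Dicer1 allele beside the D1693N allele (Dicer1ko/D1693N). The oviducts carried a normal allele beside D1693N (Dicer1+/D1693N), so D1693N was present in every library. The genotypes come from the labels, since small RNA counts do not measure Dicer1 messenger RNA. Age, sex and any Cre driver were not given in the sources used here.

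MicroRNAs are short RNAs that guide silencing proteins to messenger RNAs, mainly through the seed, the bases near their 5′ end. Dicer releases them from hairpin precursors in pairs, a 5p and a 3p strand, and its RNase IIIb domain, in which D1693N lies, makes the cut that frees the 5p strand. Hox genes are transcription factors that give tissues their position along the body axis, and in the female tract of the mouse neighbouring Hoxa genes mark the oviduct and the uterus. The microRNAs in their clusters are transcribed from the same chromosome regions. In mouse, miR-196 directs cleavage of Hoxb8 messenger RNA, and in human breast cancer miR-10b is known for its link to invasion.

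The sequences are shown because the paralogs differ by only a few bases. The mature strands are printed from 5′ to 3′ with the seed (bases 2 to 8) in capitals, from RefSeq on GRCm38.p6, where all 9 members were found.
miR-10a-5p: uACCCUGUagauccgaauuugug
miR-10b-5p: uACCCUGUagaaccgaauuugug
miR-10a-3p: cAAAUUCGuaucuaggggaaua
miR-10b-3p: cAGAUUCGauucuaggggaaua
miR-196a-5p: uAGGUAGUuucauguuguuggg
miR-196b-5p: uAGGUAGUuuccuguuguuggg
miR-196b-3p: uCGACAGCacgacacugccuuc
miR-615-5p: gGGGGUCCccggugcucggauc
miR-615-3p: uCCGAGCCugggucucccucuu

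Counting from 1 at the 5′ end, miR-10b-5p differs from miR-10a-5p by A12U and miR-196b-5p differs from miR-196a-5p by C12A, both outside the seed. The members of each 5p pair therefore share a seed, ACCCUGU for miR-10 and AGGUAGU for miR-196, and among the 1623 table names with a RefSeq sequence no further name had either seed. The 3p strands of miR-10b and miR-10a differ by G3A, A9U and U10A, of which 1 lies in the seed. Bases 2 to 7 of the miR-196 5p strands equal bases 3 to 8 of all 8 let-7 5p names, a shift of a single base. The assignment of reads that could match both members of a pair was not given in the sources used here, so the split within each pair is uncertain to that extent.

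The hairpins lie in all 4 clusters (GENCODE M21 on GRCm38). Mir10a (chromosome 11, 96317165 to 96317274, plus strand) overlaps no other annotated gene and ends 992 bases before Hoxb4. Mir10b (chromosome 2, 74726070 to 74726137, plus strand) lies in an intron of Hoxd3 and Hoxd4. The remaining loci belong to miR-196 and miR-615. Mir196a-1 (chromosome 11, 96265164 to 96265265) lies between genes, 6191 bases before Hoxb9, and Mir196a-2 (chromosome 15, 102973350 to 102973434) lies in an intron of Hoxc5 between Hoxc10 and Hoxc9. Both give the same miR-196a-5p, so its counts cannot be divided between them. Mir196b (chromosome 6, 52230081 to 52230165, minus strand) overlaps an exon of a Hoxa9 transcript, and Mir615 (chromosome 15, 103014910 to 103015001) lies in an intron of Hoxc5. The hairpins of the 2 most abundant members are shown with both mature strands in capitals, because their strand ratios are compared below.
Mir10a: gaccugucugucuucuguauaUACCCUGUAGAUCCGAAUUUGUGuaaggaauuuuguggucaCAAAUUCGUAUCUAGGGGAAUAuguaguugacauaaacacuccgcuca
Mir10b: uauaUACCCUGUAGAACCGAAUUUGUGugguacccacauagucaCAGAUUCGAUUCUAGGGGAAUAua

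Sequencing depth, as total mouse microRNA counts per library, was 154002 to 272167 in the tumors and 297039 to 580390 in the oviducts. Levels are given as CPM, counts scaled to library size with TMM factors, which assume that most microRNAs do not change. At 3 counts, the detection floor, a name had 12.8 to 15.04 CPM in the tumors and 5.45 to 11.8 CPM in the oviducts. Tumor 1 stood apart: miR-143-3p, a microRNA of smooth muscle and fibroblasts, took 60.9% of its counts, against 27.7% and 13.9% in tumors 2 and 3 and 44.1% to 47.2% in the oviducts. Summed CPM of the 6 multiciliated-cell names, typical of oviduct epithelium, lay between 420.3 and 1204 in the tumors and between 14806 and 21529 in the oviducts. Most of the oviduct sum was miR-34c-5p, with means of 275 CPM in the tumors and 15537 CPM in the oviducts. Its opposite strand, miR-34c-3p, had 183 and 357 CPM and was not called. The log2 5p:3p ratio of that hairpin changed by -5.82 (limma adjusted p = 0.00103), so the sum mixes strand balance with cell-type level. The summed CPM of 6 smooth muscle and fibroblast names was 94292 to 832786 in the tumors and 488719 to 556158 in the oviducts. Nearly all of this sum was miR-143-3p. The 7 epithelial names summed to 4147 to 7268 CPM in the tumors and 7188 to 12162 in the oviducts, and the 2 endothelial names to 15136 to 20113 in the tumors and 7117 to 9508 in the oviducts. The 6 leukocyte names summed to 1424 to 7286 CPM in the tumors and 1421 to 2394 in the oviducts, and the 3 red-cell names to 1859.9 to 11534 in the tumors and 4457 to 5629.9 in the oviducts. Calls by edgeR (adjusted p under 0.05) were 3 of 5 tested multiciliated names lower, 2 of 5 smooth muscle and fibroblast names lower, 2 of 2 endothelial names higher, 1 of 7 epithelial names higher and 1 lower, 0 of 6 leukocyte names and 1 of 2 red-cell names higher, beside 26.9% higher and 25.6% lower over all tested names. No listed name was at 0 in every library of a group. Tissue state, genotype and a file tag (s1 in the column names of the tumors, s0 in those of the oviducts) cannot be told apart. In bulk tissue, fewer cells of a type and less RNA per cell cannot be told apart either, and the part of these cell-type levels in the results that follow was not tested.

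The Hox-cluster microRNAs were among the most abundant in both tissues, and nearly all of their counts came from miR-10a-5p and miR-10b-5p. The 9 members together took 14.3% of all mouse counts in tumor 1 (Clopper-Pearson 95% interval 14.2 to 14.4), 25.1% in tumor 2 (24.9 to 25.3) and 29.7% in tumor 3 (29.5 to 29.97). The shares in oviducts 1, 2 and 3 were 22.3% (22.2 to 22.5), 21.2% (21.1 to 21.3) and 23.5% (23.3 to 23.6). The oviducts lay close together, while the tumors spread on both sides of them, with tumor 1 lowest. The mean share was 23.0% ± 7.93 in the tumors and 22.3% ± 1.14 in the oviducts (SD, n = 3 each, two-sided exact permutation p = 0.9, where 3 against 3 allows no p below 0.1). The sign of this difference depended on the denominator. Without the miR-143 hairpin the members took 36.6%, 34.7% and 34.6% in the tumors and 39.9%, 39.2% and 44.5% in the oviducts. Among 5p counts alone they took 61.9%, 58.7% and 63.8% in the tumors and 52.5%, 52.2% and 57.1% in the oviducts. Both of these separated the groups completely, in opposite directions (exact p = 0.1 each).

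The miR-10 guide strands held their place at the top of the libraries, with miR-10a-5p above miR-10b-5p in 2 of 3 tumors and in 0 of 3 oviducts. The level of miR-10a-5p was 59527, 104247 and 128704 CPM in tumors 1, 2 and 3, against 87289.5, 79477 and 57719 CPM in oviducts 1, 2 and 3. The level of miR-10b-5p was 134766, 84434 and 71189 CPM in the tumors, against 171747, 143111 and 215951 CPM in the oviducts. The groups overlapped for miR-10a-5p and did not overlap for miR-10b-5p, which was lower in each tumor than in any oviduct. By count, miR-10b-5p ranked 2, 3 and 3 among all mouse names in the tumors and 2 in each oviduct, and miR-10a-5p ranked 3, 2 and 1 in the tumors and 3 in each oviduct.

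Neither guide strand of miR-10 passed the test. The edgeR quasi-likelihood test called 119 of 227 names at an adjusted p under 0.05, which is 52.4% of those tested, 61 of them higher and 58 lower in the tumors. Mean miR-10a-5p was 97493 ± 35079.8 CPM in the tumors and 74828 ± 15324 CPM in the oviducts (SD, n = 3 each), with a log2 fold change, tumor over oviduct, of 0.38 (SE 0.35, edgeR adjusted p = 0.373). Mean miR-10b-5p was 96796 ± 33543 CPM in the tumors and 176937 ± 36696 CPM in the oviducts (n = 3 each), with a log2 fold change of -0.87 (SE 0.35, edgeR adjusted p = 0.0548). The adjusted p of miR-10b-5p lies just outside the threshold, and the strand was called without tumor 1 (log2 -1.46, adjusted p = 0.00204), without oviduct 1 (-1.24, adjusted p = 0.0457) and without the miR-143 hairpin (-0.87, adjusted p = 0.0301). Relative to the median of all tested names, which was 0.20, the log2 values were 0.18 for miR-10a-5p and -1.07 for miR-10b-5p.

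**Figure D1:**
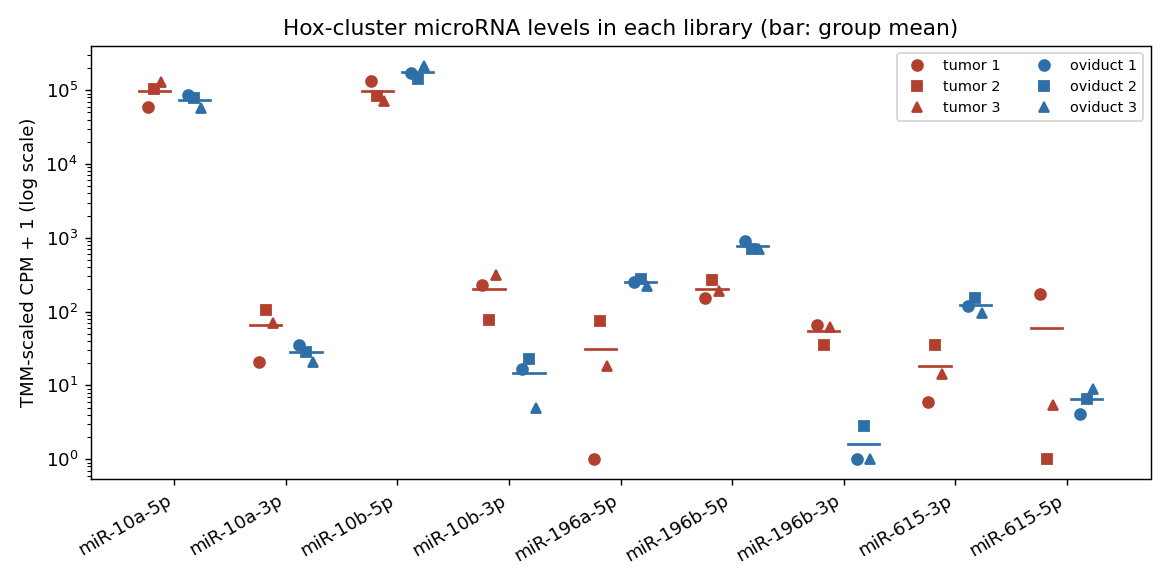
TMM-scaled CPM plus 1 (log axis) of the 9 Hox-cluster strands in each of 3 tumors (red) and 3 oviducts (blue); points are libraries and bars are group means. The miR-10 guide strands sit near the top in all 6 libraries, while miR-196a-5p, miR-196b-5p and miR-615-3p are lower and miR-10b-3p and miR-196b-3p higher in every tumor than in any oviduct.

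The ratio of the paralogs within a library needs no scaling between libraries. Of the reads given to either miR-10 guide strand, miR-10a-5p took 30.6% in tumor 1 (95% interval 30.2 to 31.1), 55.3% in tumor 2 (54.8 to 55.7) and 64.4% in tumor 3 (63.9 to 64.8). In oviducts 1, 2 and 3 it took 33.7% (33.4 to 34.02), 35.7% (35.4 to 36.0) and 21.1% (20.8 to 21.4). Tumors 2 and 3 thus had more miR-10a-5p than miR-10b-5p, while tumor 1, the library dominated by miR-143-3p, lay within the range of the oviducts. Summed CPM of the smooth muscle and fibroblast names was 832786 in tumor 1, against 209914 and 94292 in tumors 2 and 3. Nearly all of that sum was miR-143-3p, with a tumor mean of 378303 CPM. In the same list miR-145a-5p and miR-145a-3p were lower in each tumor than in any oviduct. Their means were 104 and 218 CPM in the tumors, against 2867 and 815 CPM in the oviducts. The other 3 tested names were not called. The part of these names in the ratio was not tested. The mean log2 ratio of miR-10a-5p to miR-10b-5p was -0.01 ± 1.05 in the tumors and -1.24 ± 0.58 in the oviducts, a difference of 1.24 (n = 3 each, exact permutation p = 0.3). Without tumor 1 the difference was 1.82 (exact p = 0.1).

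The strands opposite the miR-10 guides were rare in every library, and miR-10b-3p rose in the tumors. Counts of miR-10b-3p were 45, 18 and 71 in the tumors, against 5, 12 and 1 in the oviducts. Counts of miR-10a-3p were 4, 24 and 16 in the tumors, against 11, 15 and 5 in the oviducts. The miR-10b-3p counts were higher in each tumor than in any oviduct although the tumor libraries were smaller, whereas those of miR-10a-3p overlapped. The log2 ratio of miR-10a-3p to miR-10b-3p differed between the groups by -2.77 (n = 3 each, exact permutation p = 0.2). On the CPM scale miR-10b-3p rose to 204 ± 118 in the tumors, against 13.8 ± 9.07 in the oviducts (n = 3 each, log2 3.76, SE 0.75, edgeR adjusted p = 0.00205), a log2 value that was 3.12 without oviduct 3. The low-count limit, 35.1 CPM, was applied to CPM from library totals, before TMM scaling, and so differs in scale from the levels printed here. This strand met it in all 3 tumors and in 0 oviducts, so it was tested only because it was high in the tumors. Of the 110 tested 3p names, 41.8% rose. The pooled rate of miR-10a-3p was 2.42 times as high in the tumors as in the oviducts (exact Poisson 95% interval 1.49 to 3.96), an interval that leaves out the spread between libraries. It was tested under 6 alternative settings and called under none, its log2 fold change being 0.92 with no low-count filter (edgeR adjusted p = 0.438) and 1.37 without tumor 1 (adjusted p = 0.0510).

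Within the miR-10a hairpin the change in strand balance was not called. The 3p strand took 0.0337%, 0.0983% and 0.0544% of the hairpin's counts in tumors 1, 2 and 3, with 95% intervals of 0.00918 to 0.0862, 0.0630 to 0.146 and 0.0311 to 0.0883. In oviducts 1, 2 and 3 it took 0.0391% (0.0195 to 0.0700), 0.0343% (0.0192 to 0.0566) and 0.0341% (0.0111 to 0.0795). By point value tumor 1 lay beside the oviducts and tumors 2 and 3 above them. The interval of tumor 3 overlapped those of all oviducts, and that of tumor 2 overlapped those of oviducts 1 and 3. The log2 5p:3p ratio was 10.71 ± 0.71 in the tumors and 11.37 ± 0.10 in the oviducts, a change of -0.66 (SE 0.60, limma adjusted p = 0.391). Over all tested hairpins this ratio changed in 73, which is 51.4% of them. It fell in 67 (47.2%) and rose in 6 (4.23%).

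Within the miR-10b hairpin the 3p share was 0.167%, 0.0911% and 0.435% in the tumors, with 95% intervals of 0.122 to 0.224, 0.0540 to 0.144 and 0.340 to 0.548. In the oviducts it was 0.00904% (0.00294 to 0.0211), 0.0152% (0.00788 to 0.0266) and 0.00182% (4.6e-05 to 0.0102). Every tumor lay above every oviduct. The hairpin's log2 5p:3p ratio was 9.03 ± 1.13 in the tumors and 13.69 ± 1.31 in the oviducts, a change of -4.66 (SE 0.82, limma adjusted p = 0.000913). The difference between the paralogs, as the log2 5p:3p ratio of miR-10a minus that of miR-10b, was 2.16, -0.10 and 2.97 in the tumors and -2.04, -1.16 and -3.78 in the oviducts. In the oviducts the miR-10b hairpin was thus the more one-sided of the pair, and in tumors 1 and 3 the miR-10a hairpin was. The change of 4.00 separated all tumors from all oviducts (exact permutation test over 3 against 3 libraries, p = 0.1, which is the minimum, and 0.2 after Benjamini-Hochberg adjustment over 6 such ratios and shares). It lay between 3.12 and 4.89 under other pseudocounts and without any single library.

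**Figure D2:**
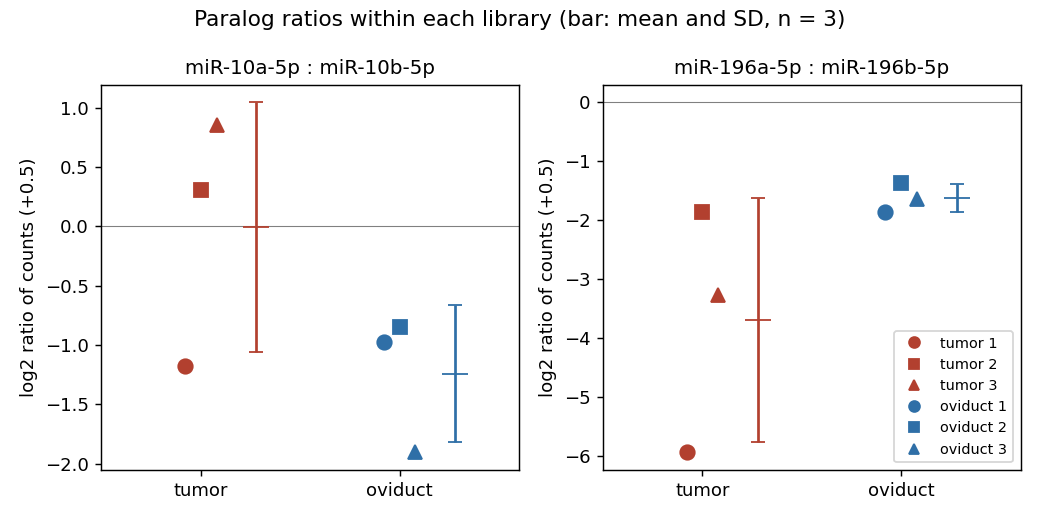
Log2 ratio of counts, with 0.5 added, of miR-10a-5p to miR-10b-5p (left) and of miR-196a-5p to miR-196b-5p (right) in each of 3 tumors (red) and 3 oviducts (blue); bars give mean and SD. Tumors 2 and 3 lie above 0 for miR-10 while tumor 1 lies among the oviducts, and all tumors lie below the oviducts for miR-196, with tumor 2 at -1.86 just under oviduct 1 at -1.85.

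The miR-196 guide strands, from the posterior part of the clusters, fell in the tumors. Counts of miR-196a-5p were 0, 17 and 4 in the tumors, against 80, 150 and 57 in the oviducts. Counts of miR-196b-5p were 30, 63 and 43 in the tumors, against 290, 389 and 179 in the oviducts. For neither strand did the groups overlap, and tumor 1, the deepest tumor library, had no read of miR-196a-5p, which allows up to 15.04 CPM. Mean miR-196a-5p was 30.1 ± 37.9 CPM in the tumors and 248 ± 24.1 CPM in the oviducts (n = 3 each), a log2 fold change of -3.0 (SE 0.88, edgeR adjusted p = 0.0174). The low-count limit was met by miR-196a-5p in all 3 oviducts and in 1 tumor, so it was tested only because it was high in the oviducts. Without oviduct 2 the call was lost (adjusted p = 0.0664) at a log2 value of nearly the same size, -3.04, and without tumor 2 the log2 value was -4.64.

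For miR-196b-5p the level was 150.4, 269 and 188 CPM in the tumors, against 900.5, 707 and 705 CPM in the oviducts. The mean was 202.7 ± 60.8 CPM in the tumors and 771 ± 112 CPM in the oviducts (n = 3 each). It was 3.79 times lower in the tumors, with a log2 fold change of -1.92 (SE 0.35) and an edgeR adjusted p of 0.00126. Of the tested 5p names, 48.4% fell. Of the 4 tested 5p members, both of miR-196 fell and both of miR-10 were not called. Nothing is read from this contrast. The low-count limit was met by miR-196a-5p in 1 tumor only, and miR-10b-5p lay just outside the threshold (edgeR adjusted p = 0.0548).

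Within a library, the miR-196 guides were lower relative to those of miR-10 in each tumor than in any oviduct, a difference that a test of 3 against 3 could not call. The log2 ratio of the summed miR-196 to the summed miR-10 5p counts was -10.31, -9.10 and -9.91 in the tumors and -7.81, -7.83 and -8.20 in the oviducts. The groups did not overlap, with a difference of -1.83 (n = 3 each, exact permutation p = 0.1, and 0.2 after adjustment over the 6 ratios and shares). It lay between -2.16 and -1.56 without any single library.

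Between the miR-196 paralogs the share of miR-196a-5p was 0% (95% interval 0 to 11.6), 21.3% (12.9 to 31.8) and 8.51% (2.37 to 20.4) in the tumors. It was 21.6% (17.5 to 26.2), 27.8% (24.1 to 31.8) and 24.2% (18.8 to 30.1) in the oviducts. By point value tumors 1 and 3 lay below the oviducts, while tumor 2 lay beside them. The interval of tumor 3 overlapped those of oviducts 1 and 3. The log2 ratio was -3.69 ± 2.07 in the tumors and -1.62 ± 0.24 in the oviducts, a difference of -2.07 (n = 3 each, exact permutation p = 0.1). The size of this difference rests on tumor 1 and its count of 0, being -0.94 without that library and -0.71 with a pseudocount of 5 in place of 0.5.

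The opposite strands of miR-196 were almost absent from the oviducts. Counts of miR-196b-3p were 13, 8 and 14 in the tumors, against 0, 1 and 0 in the oviducts. The pooled rate was 59.6 times as high in the tumors as in the oviducts (exact Poisson 95% interval 10.01 to 2419, counting error only). It too met the low-count limit in all 3 tumors and in 0 oviducts, so it was tested only because it was high there, and the edgeR call (log2 5.39, SE 0.69, adjusted p = 0.000171) adds no independent support. Its size depends on the single oviduct read, the log2 value being 6.70 without oviduct 2, 4.78 without oviduct 1 and 4.87 without oviduct 3.

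In the miR-196b hairpin the 3p strand made up 30.2% of the counts in tumor 1 (95% interval 17.2 to 46.1), 11.3% in tumor 2 (4.99 to 21.0) and 24.6% in tumor 3 (14.1 to 37.8). It took 0% of 290 reads (0 to 1.26), 0.256% (0.00649 to 1.42) and 0% of 179 reads (0 to 2.04) in the oviducts. The lowest tumor thus had many times the share of the highest oviduct, and the intervals of the groups did not meet. The change of the log2 5p:3p ratio was -6.68 (SE 0.67) at a limma adjusted p of 2.78e-05, and it was -4.15 with a pseudocount of 5 and -8.33 with 0.1. For miR-196a the table lists a 3p strand for each copy. The 3p strand of Mir196a-1 had 0, 1 and 1 counts and that of Mir196a-2 had 0, 1 and 0 counts in the tumors, and both had 0 in all oviducts. Pooled over the copies, the change was -6.01 (SE 0.78) at a limma adjusted p of 0.000121, but this value rests on 3 reads of the 3p strand and on the pseudocount, being -3.48 with 5 and -8.14 with 0.1.

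**Figure D3:**
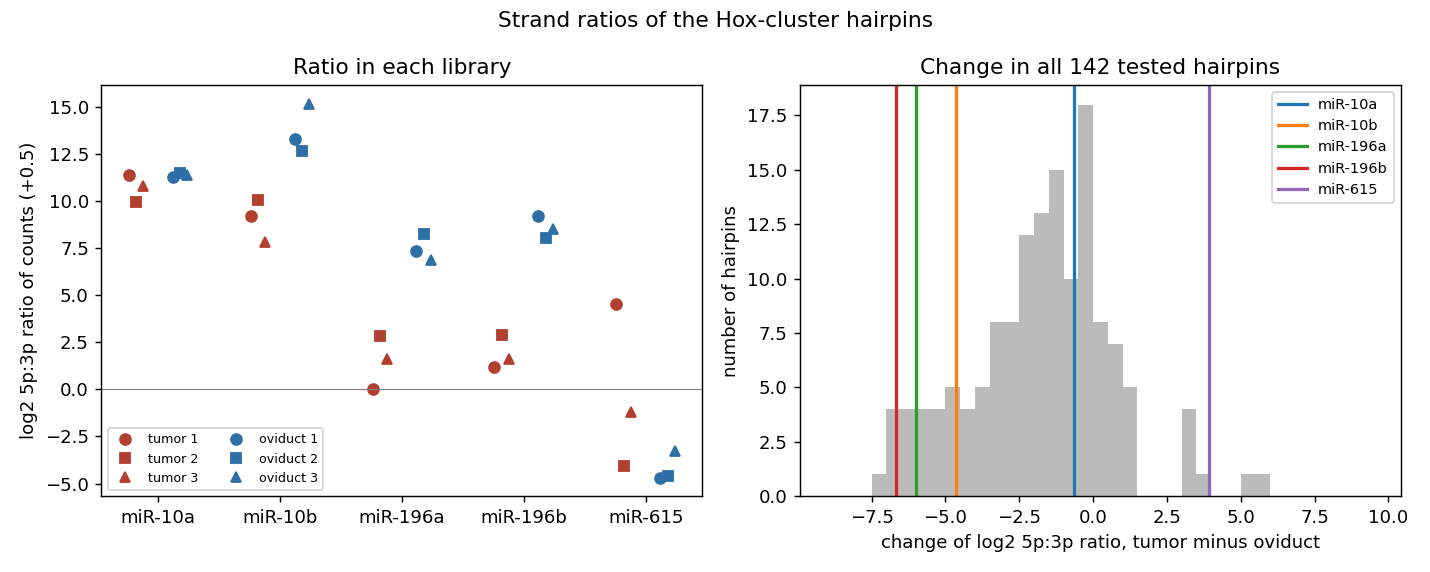
Left, log2 5p:3p ratio of counts (0.5 added) of the 5 Hox-cluster hairpins in each of 3 tumors (red) and 3 oviducts (blue). Right, the change of this ratio (tumor minus oviduct) in all tested hairpins as a histogram, with lines for the 5 hairpins: miR-196b, miR-196a and miR-10b lie in the lower tail, miR-10a at -0.66 and miR-615 at 3.93.

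The miR-615 hairpin differed from the others in that its 3p strand was the main product in the oviducts. Counts of miR-615-3p were 1, 8 and 3 in the tumors, against 38, 84 and 24 in the oviducts. The level was 5.01, 34.2 and 13.1 CPM in the tumors, against 118, 153 and 94.5 CPM in the oviducts, with no overlap. The strand fell (log2 -2.75, SE 0.65, edgeR adjusted p = 0.00537), and the log2 value was -3.61 without tumor 2. It met the low-count limit in all 3 oviducts and in 1 tumor, so it was tested only because it was high in the oviducts. Of the tested 3p names, 11 of 110 or 10% fell. Nothing is read from this share, since some 3p names, such as miR-196b-3p, were tested only because they were high in the tumors.

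The 5p strand of miR-615 was counted mainly in a single library. It had 34, 0 and 1 counts in tumors 1, 2 and 3, against 1, 3 and 2 in the oviducts. Only tumor 1 stood above the oviducts, at 171 CPM, against at most 7.87 CPM in any oviduct. With no low-count filter it was not called (log2 3.05, SE 1.28, edgeR adjusted p = 0.135). The 3p strand accordingly took 2.86% (95% interval 0.0723 to 14.9) of the hairpin's counts in tumor 1, all 8 in tumor 2 and 3 of 4 in tumor 3, against 97.4% (86.5 to 99.9), 96.6% (90.3 to 99.3) and 92.3% (74.9 to 99.1) in the oviducts. The change of the log2 5p:3p ratio, 3.93 (SE 1.68, limma adjusted p = 0.0745), was not called. It was 1.53 without tumor 1 (adjusted p = 0.121) and was called without tumor 2 (5.84, adjusted p = 0.00970) and with a pseudocount of 5 (3.09, adjusted p = 0.000579).

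Of the 9 members, 7 were tested, of which 2 rose, 3 fell and 2 were not called, beside calls for 52.4% of all tested names. The groups did not overlap for 6 of the 7, beside 60.4% of all tested names. Nothing is read from these counts, since both strands that rose met the low-count limit in the tumors alone, and miR-196a-5p and miR-615-3p met it in all 3 oviducts and in 1 tumor. The direction of the calls did not change with the scaling. In 5 scalings (TMM, RLE factors, upper-quartile factors, library totals alone and TMM factors from 3p names) the log2 fold change lay between 2.79 and 4.15 for miR-10b-3p, between 4.60 and 5.70 for miR-196b-3p, between -3.85 and -2.48 for miR-196a-5p, between -2.80 and -1.46 for miR-196b-5p and between -3.63 and -2.32 for miR-615-3p. All of these were called. The median over all names moved from -0.73 with TMM factors from 3p names to 0.65 with library totals alone. The members moved together with this median, by too little to reverse values of this size. The same filtered names were fitted each time, so the kept signs and calls add no independent support. The sign of miR-10a-5p moved with the median, from -0.56 to 0.90, while relative to that median it stayed between 0.17 and 0.25. Relative to the same median miR-10b-5p stayed between -1.21 and -0.97.

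**Figure D4:**
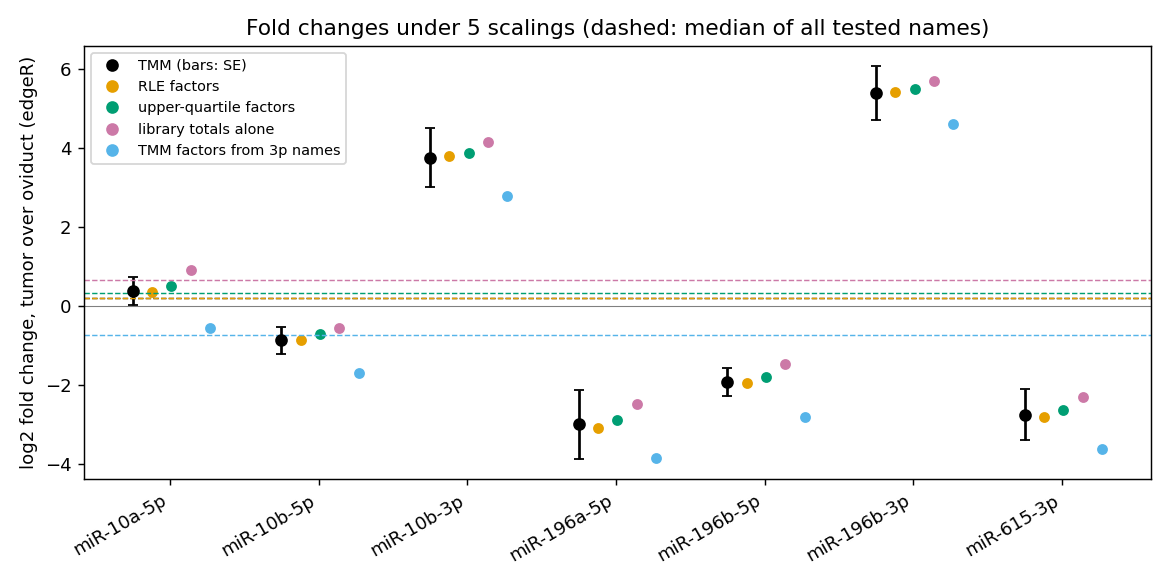
Log2 fold change (tumor over oviduct, edgeR) of the 7 tested Hox-cluster strands under 5 scalings; black points with bars are TMM values with SE, and dashed lines give the median of all tested names under each scaling. The 5 called strands keep their sign in every scaling, while miR-10a-5p moves from 0.90 with library totals alone to -0.56 with TMM factors from 3p names.

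The relatives of miR-10 outside the Hox clusters, the miR-99, miR-100 and miR-125 hairpins, were called in every case. All 11 listed strands were tested, and this list was chosen with earlier results known. All 5 of its 5p strands fell, with log2 values between -3.69 for miR-125b-5p and -1.52 for miR-99b-5p, beside 48.4% of all tested 5p names. All 6 of its 3p strands rose, with values between 1.59 for miR-125b-2-3p and 5.27 for miR-99b-3p, beside 41.8% of all tested 3p names. Oviduct means were only 8.23 CPM for miR-100-3p and 16.8 CPM for miR-125a-3p. At such levels these strands were tested only because they were high in the tumors, so nothing is read from the count of rises. Whether miR-10a differs from these hairpins was not tested.

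The microRNAs with the most similar profiles were found by the root mean square difference of log2 CPM, centred on each name's mean, over the 6 libraries and 172 other names of at least 100 CPM. For miR-10a-5p these were miR-322-5p (0.12), miR-484 (0.18) and miR-342-3p (0.27), none of which was called between the groups. For miR-10b-5p they were miR-148a-3p (0.25), let-7e-5p (0.28) and let-7c-5p (0.28), of which the first and let-7e-5p fell (log2 -1.08 and -1.13, edgeR adjusted p = 0.00756 and 0.0122). For miR-196b-5p they were miR-423-5p (0.17), miR-497a-5p (0.25) and let-7d-5p (0.27), all of which fell. For miR-196a-5p the nearest names were less close, miR-199a-5p at 0.78, miR-145a-5p at 1.17 and miR-218-5p at 1.23, and all 3 fell. The difference between tumors and oviducts is part of each profile. The calls of these nearest names therefore follow largely from how the names were chosen, and nothing is read from them.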

How the data were processed

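Small RNA was sequenced from 3 tumors and 3 oviducts of mice. The labels' protocols name miRNeasy extraction and the Illumina TruSeq small RNA kit, and the submitters' processing notes name cutadapt, without a version. The deposited values are raw counts per mature microRNA name, from BAM files of trimmed reads per the file headers. Aligner, counter, microRNA reference and build were not given in the sources used here. The series text speaks of 4 tumors and 5 oviducts, of which 3 and 3 were analysed here. Whether each sample is a separate animal is not stated. The p-values therefore reflect only the spread among these libraries, which may be technical. Within a group, every pair of libraries differed by more than counting error (lowest chi-square per degree of freedom 24.4). Separate preparations from the same animal are not excluded by this.

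Of the table's names, 1915 were mouse and 67 of other species. The 67 carried 10 counts and were left out. Mouse names were tested with edgeR 4.0.16 in R 4.3.3 (filterByExpr with a minimum count of 10, TMM factors, robust quasi-likelihood test, Benjamini-Hochberg threshold 0.05 over 227 names), with a common dispersion of 0.170. Strand ratios, log2 of (5p + 0.5) over (3p + 0.5), were tested with limma 3.58.1 on hairpins averaging 20 or more counts, after pooling copies. Single values per library were compared with two-sided exact permutation tests, 6 in all. Intervals are Clopper-Pearson or exact Poisson at 95%. They and the floors reflect counting error alone: PCR reads lacking molecular identifiers are not independent molecules. The edgeR and limma tests were checked on simulated counts, where the edgeR strand interaction, an alternative, missed part of the changed hairpins. Most simulated names were unchanged, whereas 52.4% of the names tested here were called. The check therefore does not cover scaling when many names change. Alternatives were DESeq2 1.42.0, other scalings, filters and pseudocounts, a replicate block, and fits without each library in turn. Sequences came from RefSeq (GRCm38.p6) and positions from GENCODE M21. Python 3.11.15 and matplotlib 3.10.9 were used. The members, the lists and the tests were chosen with earlier results of these data known, and the named microRNAs are the members, strands of the same hairpins, names of the same seed, and the 3 nearest profiles of each tested miR-10 and miR-196 guide.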

Additional observations from a re-analysis of the deposited data

How the results depend on the processing

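The number of names called by edgeR was 119 and lay between 98 and 174 in every alternative, and was 108 with the replicate number as a block. The number of hairpins called was 73, with 53 to 88 in every alternative and 63 with the replicate block. Higher against lower calls were 61 and 58 with TMM, 71 and 27 with library totals alone, and 42 and 92 with TMM factors from 3p names. The labels do not say whether the replicate numbers pair the samples. The r of deviations was -0.06, 0.05 and -0.14 between same-numbered samples and -0.10 to 0.13 between differently numbered ones. With so few libraries these values cannot decide whether samples were paired. The block changed no call of a member. The members' values that changed sign were those of miR-10a-5p, at -0.56 with TMM factors from 3p names and between -0.0693 and 0.40 without any single library, and of the share of counts in all members. That share differed by 0.69 percentage points, by -5.94 without the miR-143 hairpin, by 7.54 among 5p counts and by -2.67 to 5.06 without any single library. The cause was not tested. For miR-10b-5p the call was gained with TMM factors from 3p names (log2 -1.71), with no low-count filter (-1.14) and when names averaging 10 CPM or more were kept (-1.23), besides the settings given above. The difference of the miR-10 paralog ratio was 0.81 to 1.82 without any single library and that of miR-196 -2.98 to -0.94. With the replicate block the paralog differences were the same, with exact sign-flip p-values of 0.5 and 0.25 (the smallest possible). Depth limited members with few reads: pooled over the tumors and over the oviducts, miR-196b-3p had 35 and 1 counts, miR-615-5p 35 and 6, miR-615-3p had 12 in the tumors and miR-196a-5p 21. The miR-143 alternative for single names was chosen after the data were seen.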
